A study of Homo sapiens with 4 samples.

Results

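H3K27Ac occupancy was examined at 7 long transcription factor genes of blood progenitors: ZEB1, ZEB2, BCL11A, BCL6, TCF4, SATB1 and ZBTB16. They were chosen by name, with earlier results of these data known, out of 20037 protein-coding genes of the RefSeq annotation of GRCh38.p14, and all 7 were found. For each gene 3 ranges were read: the 5 kb on both sides of the outermost annotated 5′ end, the remaining gene body, and flanks of 100 kb beyond each end of the gene. MOLM13, an AML line of human origin whose MLL1-r is the MLL-AF9 fusion, was profiled in 1 control library and in 1 library of cells exposed to 500 nM of SNDX-50469, a Menin inhibitor (MI), for 16 h. The treatment description names DMSO as the other arm of this exposure, while the control library itself is tagged as having no treatment. The libraries came from ChIPmentation, a ChIP-Seq protocol in which the Tn5 transposase inserts the sequencing adapters, with an antibody against H3K27Ac. The input library of each condition was not analysed here. With 1 cell line and 1 library per condition, no difference had a replicate check, and the conditions are compared without tests or p-values.

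H3K27Ac is an acetyl mark that nucleosomes carry at active promoters and enhancers, and wide stretches of it are typical of genes that set cell identity. ZEB1 and ZEB2 are zinc finger and homeodomain repressors that read E boxes, and TCF4 (E2-2) is a bHLH E protein that activates through the same element and drives plasmacytoid dendritic cell fate. BCL11A is a zinc finger repressor of fetal globin genes, BCL6 and ZBTB16 (PLZF) are repressors with a BTB/POZ domain that bind corepressors such as NCOR1, and SATB1 organises chromatin loops at AT-rich DNA. Several of the repressors among these proteins meet in common corepressor complexes, such as those built on CTBP1, NCOR1 and CHD4. The study asked how SNDX-50469 alters active enhancers and promoters in MLL1-r AML, and the comparison made here is which of the H3K27Ac peaks of these genes were still called after treatment.

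The 5′ ends differed in sequence as well as in their H3K27Ac peaks. RefSeq promoter windows were found for 6 of the 7 genes, 29 annotated starts in all, and ZBTB16 had no entry in that table. The windows of 8 starts are shown because the results turn on them: the outermost starts with peaks kept or lost, and the internal starts of SATB1 and TCF4 that lay under a peak of their own. Each is the stretch of 250 bases just before the start on GRCh38.p14, from RefSeq, written 5′ to 3′ on the strand of the gene. Capitals mark every match, on either strand, to CACCTG (the E box of ZEB and E proteins), TTCNNNGAA (the BCL6 and STAT core), TGACCA (BCL11A), AGGAAGT (ETS), TGTGGT (RUNX) or TGACAG (MEIS).
ZEB2, outermost start, chr2:144520120-144520369, minus strand: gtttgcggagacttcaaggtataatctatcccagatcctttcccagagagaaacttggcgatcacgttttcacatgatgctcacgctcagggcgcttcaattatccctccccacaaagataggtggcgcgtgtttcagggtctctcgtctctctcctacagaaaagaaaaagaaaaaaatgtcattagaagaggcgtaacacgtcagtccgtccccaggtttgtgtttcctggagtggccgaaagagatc
BCL11A, outermost start, chr2:60553925-60554174, minus strand: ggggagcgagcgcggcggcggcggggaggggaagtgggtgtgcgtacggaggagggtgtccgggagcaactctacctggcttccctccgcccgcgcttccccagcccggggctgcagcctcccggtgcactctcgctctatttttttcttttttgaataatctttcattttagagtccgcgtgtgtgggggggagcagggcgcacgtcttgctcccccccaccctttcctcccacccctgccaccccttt
SATB1, outermost start, chr3:18445593-18445842, minus strand: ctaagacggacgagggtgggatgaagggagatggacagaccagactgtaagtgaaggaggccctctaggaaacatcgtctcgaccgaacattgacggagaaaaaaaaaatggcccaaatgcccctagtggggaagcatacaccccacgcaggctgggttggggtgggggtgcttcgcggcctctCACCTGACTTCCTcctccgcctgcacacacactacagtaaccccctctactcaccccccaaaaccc
SATB1, internal start, chr3:18425340-18425589, minus strand: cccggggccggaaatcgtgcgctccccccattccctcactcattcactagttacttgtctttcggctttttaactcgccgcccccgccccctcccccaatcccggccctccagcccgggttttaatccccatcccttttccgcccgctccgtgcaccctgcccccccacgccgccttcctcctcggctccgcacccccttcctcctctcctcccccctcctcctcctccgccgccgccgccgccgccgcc
BCL6, outermost start, chr3:187745469-187745718, minus strand: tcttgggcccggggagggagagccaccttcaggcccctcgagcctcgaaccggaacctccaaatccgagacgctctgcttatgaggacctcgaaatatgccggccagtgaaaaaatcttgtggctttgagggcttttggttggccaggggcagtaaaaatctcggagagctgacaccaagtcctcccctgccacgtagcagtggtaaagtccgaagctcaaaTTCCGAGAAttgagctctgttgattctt
TCF4, outermost start, chr18:55635958-55636207, minus strand: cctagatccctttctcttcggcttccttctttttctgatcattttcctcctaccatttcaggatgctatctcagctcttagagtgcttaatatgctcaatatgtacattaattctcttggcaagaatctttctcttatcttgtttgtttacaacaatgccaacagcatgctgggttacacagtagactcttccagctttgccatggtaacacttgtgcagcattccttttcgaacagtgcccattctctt
TCF4, internal start, chr18:55589812-55590061, minus strand: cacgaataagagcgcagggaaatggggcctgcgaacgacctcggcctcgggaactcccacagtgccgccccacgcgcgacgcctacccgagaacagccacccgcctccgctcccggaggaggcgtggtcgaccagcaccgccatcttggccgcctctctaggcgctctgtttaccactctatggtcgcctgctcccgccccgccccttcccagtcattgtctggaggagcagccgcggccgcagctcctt
ZEB1, outermost start, chr10:31318167-31318416, plus strand: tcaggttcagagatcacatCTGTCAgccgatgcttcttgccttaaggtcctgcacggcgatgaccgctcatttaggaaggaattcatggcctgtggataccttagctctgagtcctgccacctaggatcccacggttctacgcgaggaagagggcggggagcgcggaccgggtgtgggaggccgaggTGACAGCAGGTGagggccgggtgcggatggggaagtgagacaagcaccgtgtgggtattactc

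In base composition the 2 TCF4 windows shown differed widely. The outermost held 40.8% G and C with 2 CpG, whereas the internal one held 68.0% with 26 CpG. The internal SATB1 window was likewise richer, with 70.0% and 24 CpG against 57.2% and 10 CpG at the outermost start. ZEB2 and BCL11A held 12 and 19 CpG and no match to any of the 6 motifs. The median over 35116 RefSeq windows of this length, from 27305 genes, was 58.0% G and C and 11 CpG.

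The matches were few and none was shared by all genes. The outermost SATB1 window held an E box directly followed by an ETS match on the other strand, 66 and 60 bases before the start. The BCL6 window held 1 match to its own core, TTCCGAGAA, 28 bases before the start. The outermost ZEB1 window, where no control peak covered the start, held an E box 57 bases before the start and 2 MEIS matches, 1 of which abuts that E box. Over all 29 windows, CACCTG was found in 5 windows of 2 genes, SATB1 and ZEB1, against 17.5% of all RefSeq windows. TGTGGT was found in 5 windows of 4 genes against 11%, TTCNNNGAA in 3 windows of 2 genes against 6.57%, and TGACAG in 3 windows of 3 genes against 13.0%. TGACCA in 2 windows of 2 genes stood against 9.19%, and AGGAAGT in 2 windows of SATB1 against 7.01%. Matches overlapped at 3 internal starts that are not shown, TGACCA with TGTGGT at BCL11A and TGTGGT with CACCTG at SATB1 and at ZEB1. These are letter matches in a fixed window and say nothing of binding by any factor.

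The 2 peak lists differed greatly in size, which bears on every value below. The control list held 245875 peaks that covered 224 Mb, and the SNDX-50469 list held 54061 peaks that covered 29.4 Mb. The smallest −log10 p was 2.68 among control peaks and 3.93 among SNDX-50469 peaks. Read totals are unknown, and a difference in depth or in enrichment between the libraries cannot be told apart from a difference in H3K27Ac. Kept control peaks are those with an overlap of 1 bp or more with any SNDX-50469 peak, and the kept share is the part of the control covered length that was also covered after treatment. Over the whole list 8.24% of control peaks were kept. Peaks lay within 5 kb of the 5′ end at 7 of 7 myeloid marker genes in control (SPI1, CEBPA, CD33, LYZ, MPO, CSF1R and FLT3), with 5966 to 10000 bp covered, and at none of 2 hepatocyte and 2 keratinocyte markers. They also lay at 3 of 4 B cell, 3 of 4 T cell and 3 of 3 erythroid markers, although PAX5 and GATA3 had none and GATA1 had 324 bp.

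Following SNDX-50469 treatment, H3K27Ac peaks of the 7 genes remained mainly around the 5′ ends of ZEB2 and BCL11A and in 2 stretches of SATB1, 1 at its 5′ end and 1 inside the gene. Those of ZEB1 and TCF4 were no longer called anywhere in the gene or within 100 kb. BCL6 kept 177 bp beside its 5′ end and 2 pieces far upstream, and ZBTB16 kept 2 pieces inside the gene. Over all ranges, control peaks covered 306725 bp of the 7 genes and SNDX-50469 peaks 40733 bp, of which 40241 bp were shared, 13.1% of the control length. The 3 longest of the 18 kept pieces, around the 5′ ends of ZEB2 and BCL11A and inside SATB1, made up 67.8% of the kept length.

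**Figure D1:**
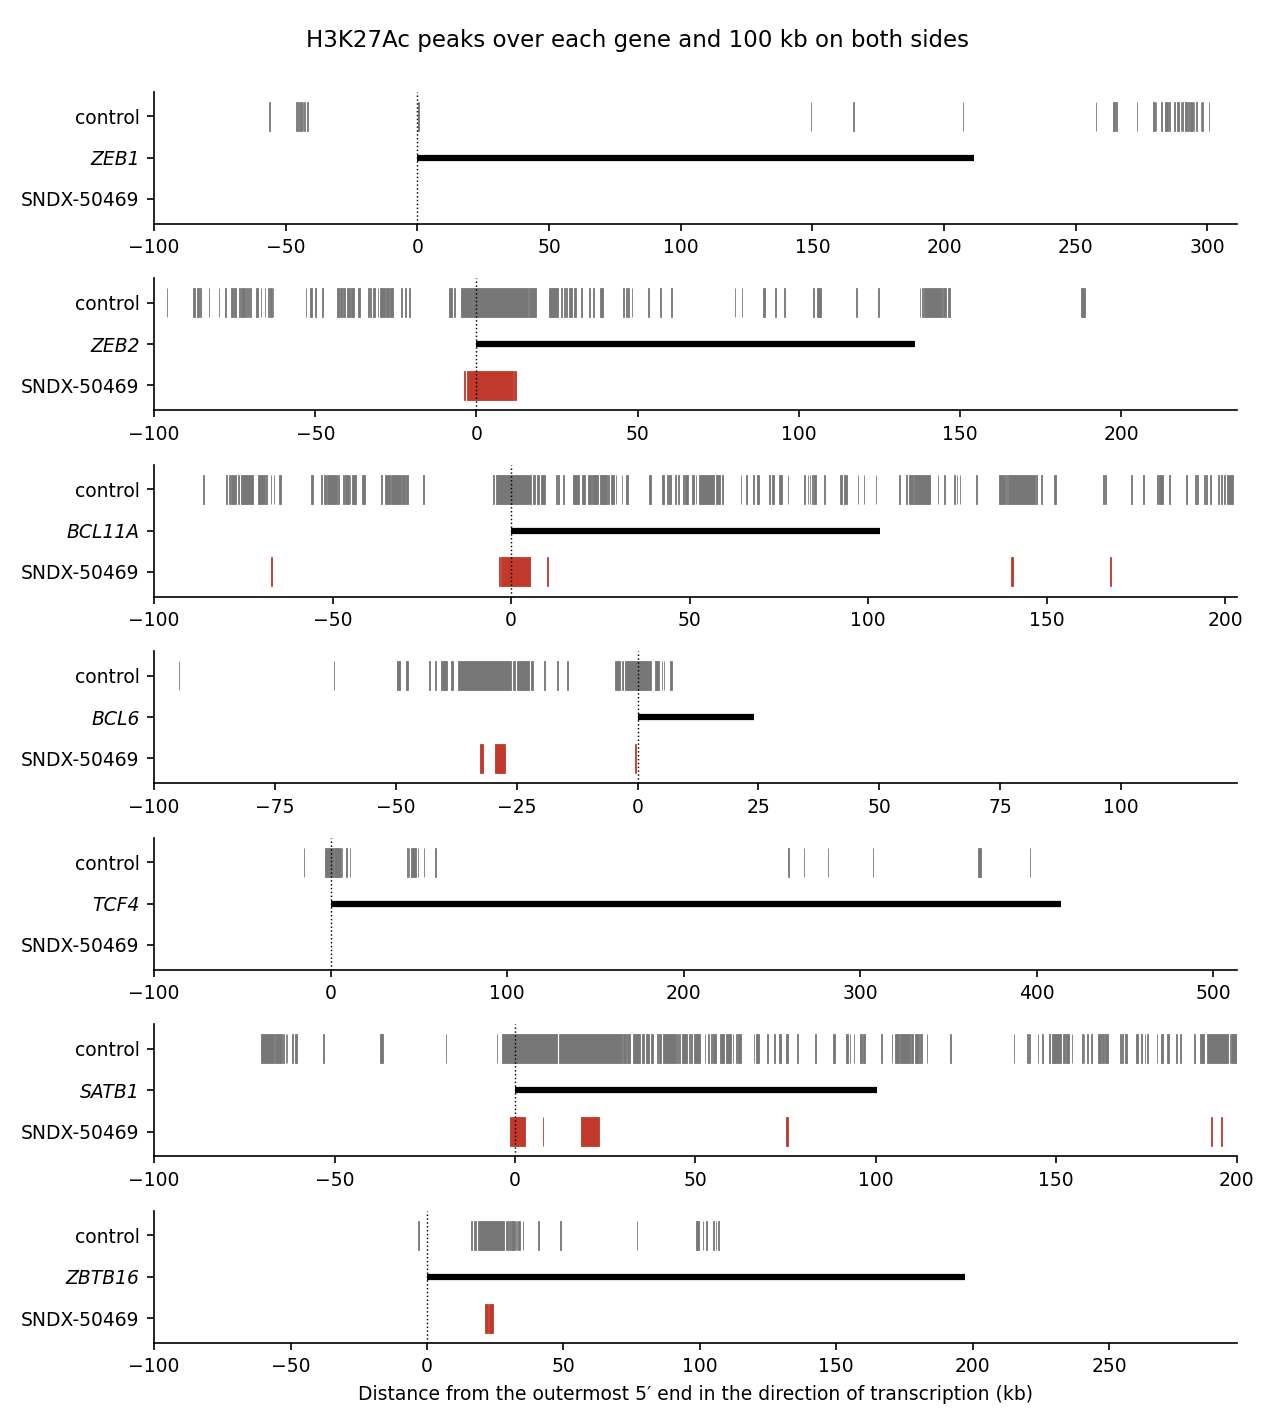
H3K27Ac peaks over each of the 7 genes and 100 kb on both sides, as distance from the outermost 5′ end in kb, negative upstream. Grey blocks are control peaks, red blocks SNDX-50469 peaks and the black bar is the gene. ZEB1 and TCF4 have no red block, and at ZEB2 all 3 red blocks lie around the 5′ end.

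Near the 5′ end the covered length fell at all 7 genes, as it did at 98.9% of the 13248 protein-coding genes with control coverage there, so that the fall as such does not set these genes apart. Summed over the 7 genes, 42541 bp were covered in control and 21008 bp after treatment, all of it kept, a kept share of 49.4%. Some coverage was kept at 4 of 7 genes (ZEB2, BCL11A, SATB1 and, by 177 bp at the floor of the SNDX-50469 list, BCL6), against 50.8% of protein-coding genes. The pooled share over protein-coding genes was 20.4%. The median of the single genes' shares was 2.45% in the 7 genes and 1.85% in all genes, so the pooled value rests on 3 genes. It was 38.1% without ZEB2 and 39.3% without BCL11A.

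**Figure D2:**
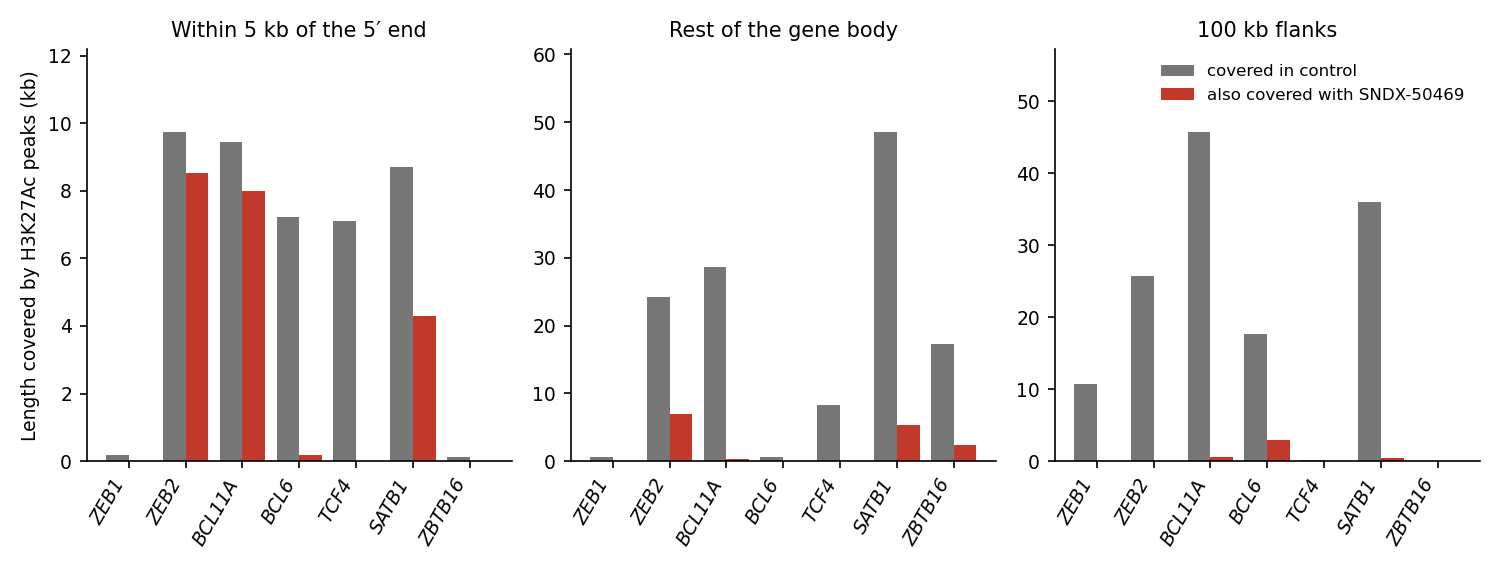
Length covered by H3K27Ac peaks in control (grey) and the part of it also covered with SNDX-50469 (red), in kb, for each gene and range. ZEB2, BCL11A and SATB1 hold nearly all of the red length near the 5′ end, and the y axes differ between panels.

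The 7 genes spread over the whole range of kept shares near the 5′ end. At ZEB2 9753 bp were covered in control and 8530 bp after treatment, a kept share of 87.5%. At BCL11A 9446 bp were covered in control and 8003 bp were kept, 84.7%. Both genes thus kept most of a nearly full window. SATB1 kept 4298 of 8699 bp, 49.4%, around its outermost start. BCL6 kept 177 of 7223 bp, 2.45%, and TCF4 kept none of 7113 bp. ZEB1 and ZBTB16 had little to lose there, with 188 and 119 bp in control and none after treatment.

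These shares were placed among the 4343 protein-coding genes with at least 5 kb of control coverage near the 5′ end, whose median kept share was 18.6% with quartiles of 3.62% and 36.1%. ZEB2 stood above 99.2% of them, BCL11A above 98.9% and SATB1 above 86.6%. BCL6 stood above 22.4%. TCF4 was 1 of 814 genes, 18.7%, that kept none of it. BCL11A and SATB1 kept unequal shares, although their control peaks at the 5′ end had like folds over background of 6.89 and 6.68. No difference between genes was tested.

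**Figure D3:**
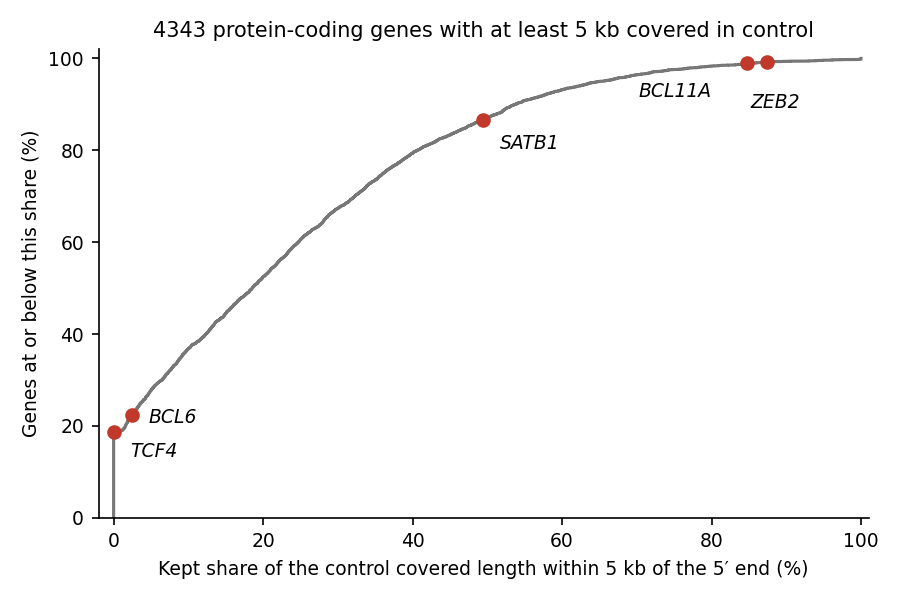
Cumulative share of 4343 protein-coding genes (y axis, %) by the kept share of the control covered length within 5 kb of the 5′ end (x axis, %). The red points are the 5 of the 7 genes with at least 5 kb covered, from TCF4 at 0 to ZEB2 at 87.5%.

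Strong and wide control peaks were kept far more often than weak ones, at these genes as in the whole list. The 11 kept control peaks had a median fold over background of 4.41 and a median width of 9619 bp. The 364 that were not kept had a median fold of 2.92, a highest fold of 4.42 and a median width of 318 bp. In the whole list the medians were 4.02 and 2191 bp for kept peaks and 2.93 and 315 bp for the others. The fold is relative to each library's own background and was compared only within a list.

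The promoter peaks were therefore read against control peaks of like fold. Near a 5′ end, 96.2% of control peaks with a fold of 7 to 8 were kept, as was the single ZEB2 peak in that bin. Of peaks with a fold of 6 to 7 near a 5′ end 91.1% were kept, as were both of these genes' peaks, at BCL11A and SATB1. With a fold of 4 to 5 near a 5′ end, 40.9% were kept in the list and 1 of 2 here, the BCL6 peak and not that of TCF4. The BCL6 peak was kept only through a SNDX-50469 peak of 177 bp at the floor of its list. That contrast with TCF4 thus rests on 1 call at the threshold. Counting peaks anywhere, 2 of 7 with a fold of 4 to 5 were kept against 31.8% of the list, and 4 of 148 with a fold of 3 to 4 against 6.76%.

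**Figure D4:**
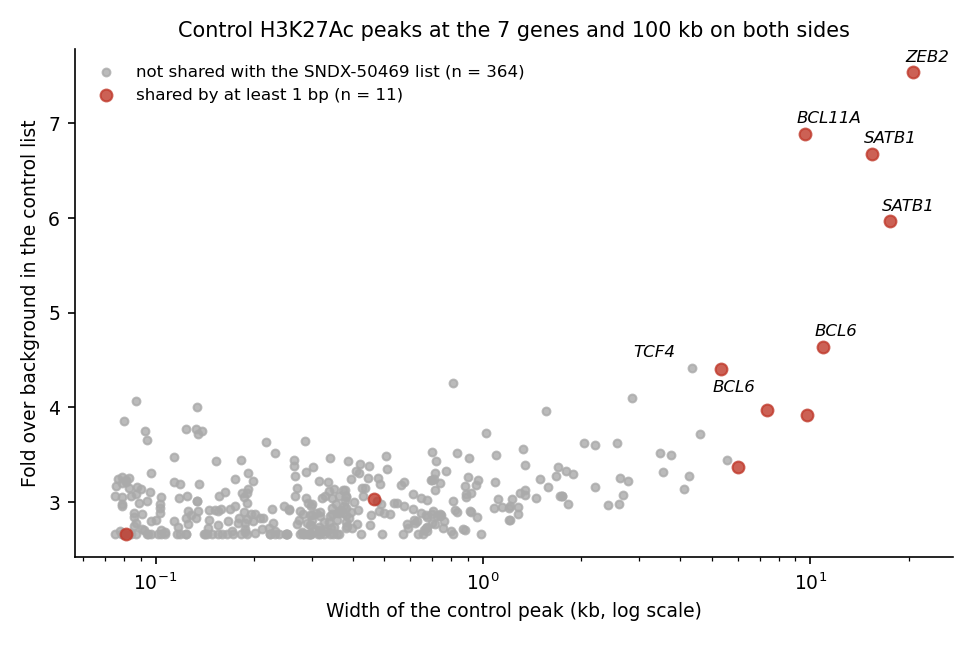
Fold over background of the control peaks of the 7 genes (y axis) by width in kb (x axis, log scale). Red points (n = 11) share at least 1 bp with the SNDX-50469 list and grey points (n = 364) do not. The points with the highest fold and width, at ZEB2, BCL11A and SATB1, are red, and the TCF4 point with a fold of 4.42 is grey beside a red BCL6 point at 4.41. That BCL6 point is red through an overlap of 177 bp.

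ZEB2 (chr2:144384081-144520119, minus strand, 136 kb) had the strongest and widest peak of the set. The control peak at chr2:144504215-144524872 spanned 20658 bp from -4.75 to 15.9 kb around the 5′ end, over the only annotated start of the gene. Its fold over background was 7.54 and its −log10 q was 10.8, and it ranked 1483 by fold and 407 by width in the control list. After treatment the peak at chr2:144508861-144523198 spanned 14338 bp, from -3.08 to 11.3 kb, with a fold of 6.0 and rank 674 by fold and 26 by width in its own list. The block therefore stayed over the start and shortened from both sides, and 15493 bp (75%) of the control peak were kept. It also overlaps the antisense gene ZEB2-AS1 and the long noncoding gene LINC01412, and peaks cannot be given to 1 of overlapping genes.

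Outside that block, no control peak of ZEB2 or its flanks was kept. Over the rest of the gene body 24238 bp in 28 peaks were covered in control and 6963 bp (28.7%) were kept, all of it within 12.4 kb of the 5′ end and in the same control peak. The flanks held 48 control peaks with 25771 bp, and none was kept. Among flanking genes, QTMAN had 1095 bp covered near its 5′ end in control and none after treatment.

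BCL11A (chr2:60450520-60553924, minus strand, 103 kb) followed the same form. The control peak at chr2:60548488-60558106 spanned 9619 bp with a fold of 6.89, a −log10 q of 9.31 and rank 2326 by fold. The SNDX-50469 peak at chr2:60548615-60556675 spanned 8061 bp with a fold of 5.75 and rank 823, and 86.4% of the control peak was kept. It covered 4 of the 5 annotated starts of the gene, and the fifth, 25.4 kb inside the gene, lay in a control peak that was not kept.

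Over the rest of the gene body BCL11A had 28571 bp in 49 control peaks and kept 310 bp (1.09%). These 310 bp were the inner end of the peak over the start, and no other control peak there was kept. In the flanks, 62 control peaks covered 45811 bp and 621 bp (1.36%) were kept, 540 bp of it inside LOC124906010. That neighbour had 5723 bp covered near its own 5′ end in control and none after treatment. BCL11A was the only 1 of the 7 genes with SNDX-50469 peaks that touched no control peak, of 124 bp in the flank, within MIR4432HG, and of 116 bp inside the gene.

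SATB1 (chr3:18345377-18445592, minus strand, 100 kb) had the longest control coverage of the 7 over the gene body and 5′ window, 57317 bp. It was more than at 96.4% of the 10951 protein-coding genes of at least 20 kb, whose median was 4696 bp. Much of it lay in 2 adjoining peaks, at chr3:18433835-18449291 with 15457 bp and a fold of 6.68 and at chr3:18415899-18433435 with 17537 bp and a fold of 5.97. They ranked 2721 and 4411 by fold in the control list. Following SNDX-50469 treatment each was reduced to a core. The first core, at chr3:18442717-18447014, spanned 4298 bp from -1.42 to 2.88 kb with a fold of 4.56. The second, at chr3:18422358-18427252, spanned 4895 bp from 18.3 to 23.2 kb inside the gene with a fold of 4.11.

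Both cores lay over annotated starts. The first covered the outermost start and the start 1.47 kb inside it, and the second covered the CpG-rich internal start 20.3 kb inside, whose window is shown above. The start 6.86 kb inside, between them, lay in a control peak and in no SNDX-50469 peak. Over the rest of the gene body SATB1 kept 5399 of 48618 bp, 11.1%, in 3 of 40 peaks. The flanks kept 501 of 35964 bp, 1.39%, in 1 of 54 peaks, within the noncoding gene BALR6. The first core also overlaps SATB1-AS1. The −log10 q of the cores was 3.15 and 2.35, so that with a −log10 q of at least 5 in both lists SATB1 kept none of 32994 bp.

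**Figure D5:**
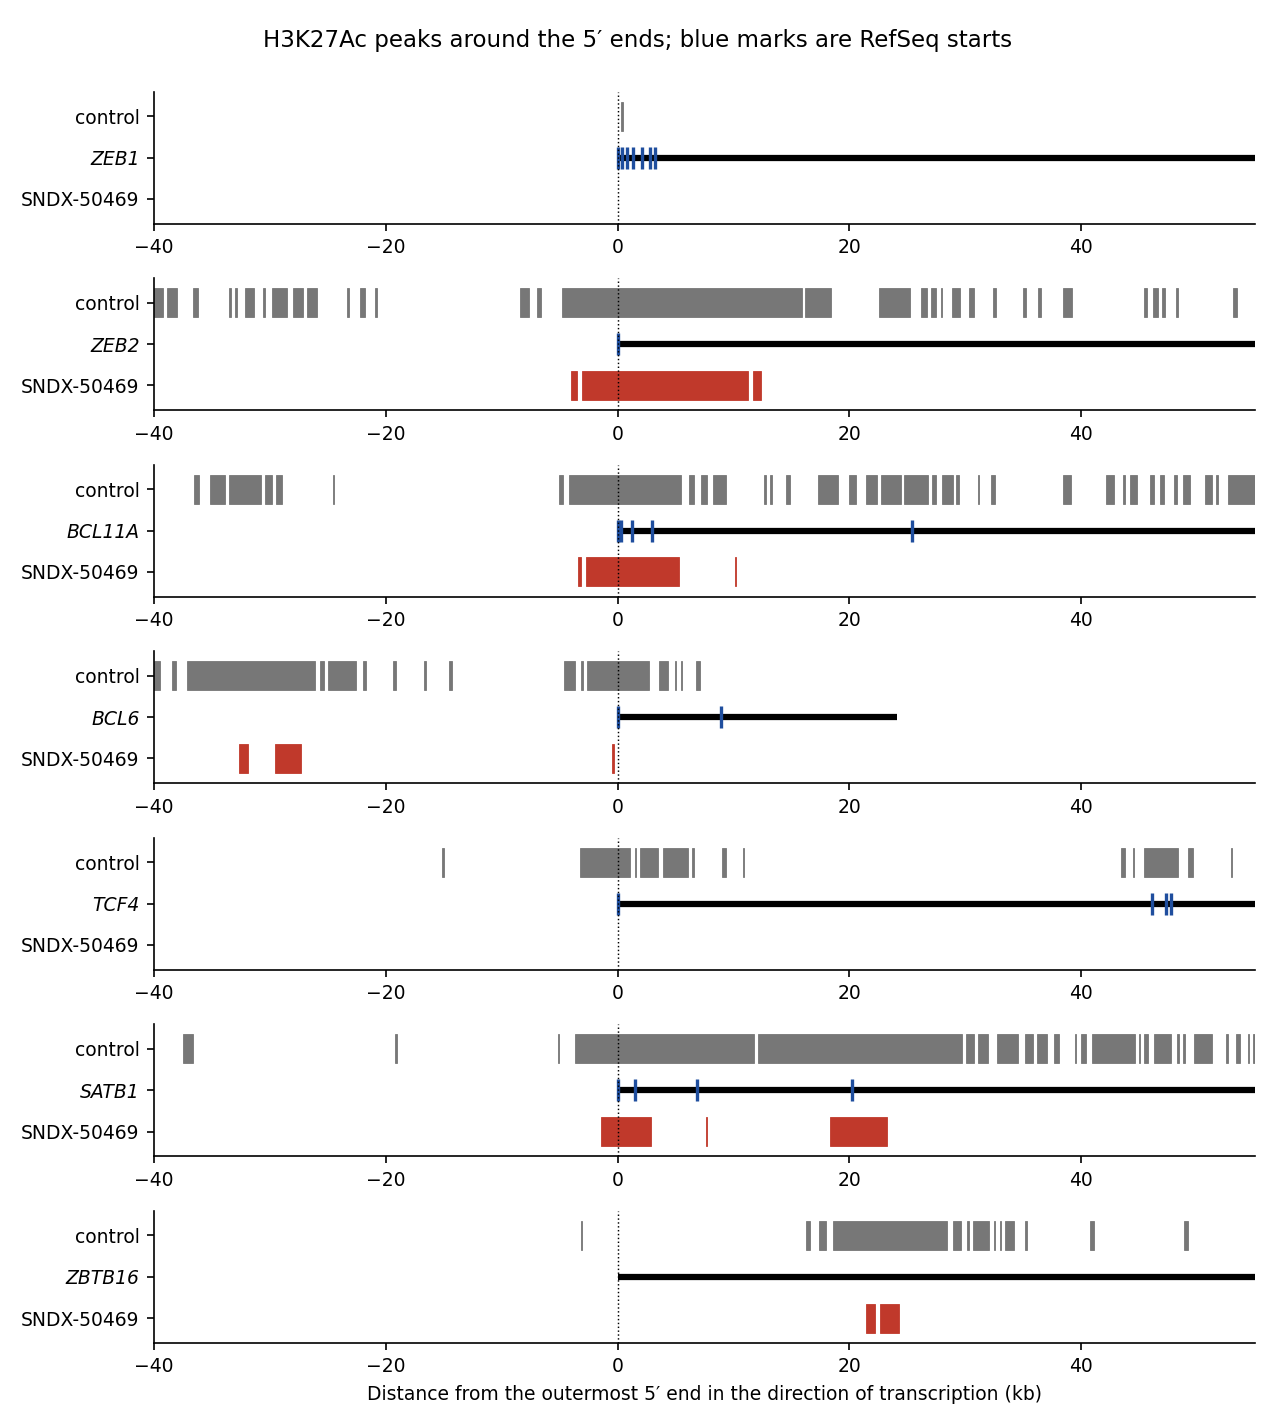
H3K27Ac peaks from 40 kb upstream to 55 kb inside each gene, as distance from the outermost 5′ end in kb. Grey blocks are control peaks, red blocks SNDX-50469 peaks, the black bar is the gene and blue marks are annotated RefSeq starts (none listed for ZBTB16). The red blocks of SATB1 sit over the outermost start and over the internal start at 20.3 kb, while the starts of TCF4 have grey blocks only.

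TCF4 (chr18:55222185-55635957, minus strand, 414 kb) was the longest of the 7 genes, and none of its 20 control peaks was kept. Its strongest and widest peak, at chr18:55634858-55639205, covered the outermost start with 4348 bp, a fold of 4.42 and rank 13213 by fold. A peak inside the gene, at chr18:55587619-55590473, covered 2855 bp with a fold of 4.1 over 3 internal starts 46.1 to 47.8 kb from the outermost. The former peak also overlaps RPL21P126 and the latter LOC105372126. The control peaks thus marked 4 of 10 annotated starts, and after treatment none. The 8217 bp over the rest of the gene body and the 173 bp in the flanks were not kept either. TCF4 had 9070 bp left in control when only control peaks with a −log10 p of at least 3.93, the smallest value of the SNDX-50469 list, were counted, and none of it was kept. With a −log10 q of at least 5 in both lists, or with the control list trimmed to equal covered length, TCF4 had no control coverage, and no loss could be seen.

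BCL6 (chr3:187721377-187745468, minus strand, 24.1 kb) kept more upstream than at its start. Its promoter peak at chr3:187742750-187748088 spanned 5339 bp with a fold of 4.41 and rank 13231, close to the TCF4 peak at rank 13213. Of the BCL6 promoter peak only 177 bp (3.32%) were kept, from -0.505 to -0.328 kb, just before the start. Both the control peak and this piece overlap BCL6-AS1. The SNDX-50469 peak there had a fold of 3.46, a −log10 p of 3.93 and a −log10 q of 1.39, each the smallest value of its list. The 578 bp over the rest of the gene body were not kept. The widest and strongest control peak of BCL6 lay from -37.1 to -26.2 kb, at chr3:187771623-187782587, with 10965 bp and a fold of 4.64, where no RefSeq gene is annotated.

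In that upstream region 2 SNDX-50469 peaks were called. The stronger, at chr3:187772825-187775039, spanned 2215 bp with a fold of 5.69, a −log10 q of 5.19 and rank 873 in its list, and the other, at chr3:187777335-187778118, spanned 784 bp. Together they made 2999 of the 17645 bp covered in the flanks in control, 17.0%, and the peak was the only 1 of 15 kept there. No protein-coding gene in the flanks of BCL6 had control coverage near its 5′ end. The direction at BCL6 rested on the thresholds of the lists. Over all ranges the covered length after treatment minus that in control was -22270 bp, whereas with a −log10 q of at least 5 in both lists the difference was 2215 bp, and with the control list trimmed to equal covered length it was 3176 bp.

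ZBTB16 (chr11:114059711-114256770, plus strand, 197 kb) had its H3K27Ac inside the gene. Only 119 bp were covered near the 5′ end in control, and nothing within the flanks. The control peak at chr11:114078322-114088108, from 18.6 to 28.4 kb inside, spanned 9787 bp with a fold of 3.92 and rank 20761. After treatment 2 peaks lay in it, at chr11:114082398-114084046 with 1649 bp, a fold of 5.04 and rank 1648, and at chr11:114081143-114081933 with 791 bp and a fold of 4.1. The gene body kept 2440 of 17233 bp, 14.2%, and all of it was in this peak. With the control list trimmed to equal covered length the peak was no longer in that list, and the difference in covered length turned from -14912 to 2440 bp.

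ZEB1 (chr10:31318417-31529804, plus strand, 211 kb) had the least coverage of the 7 over the gene body and 5′ window, 800 bp, and only 25.2% of the genes of at least 20 kb had less. A single peak of 188 bp near the 5′ end reached 1 of 7 annotated starts. The rest of the gene body had 612 bp in 3 peaks. The flanks had 10753 bp in 28 peaks, the strongest of them, with a fold of 3.52, in LOC124906892 beyond the 3′ end, a gene with 3675 bp covered near its 5′ end. None of these 32 peaks was kept. The paralogue ZEB2 had 33991 bp over the same range. Of the ZEB1 coverage in all ranges, 232 bp were left with a −log10 p of at least 3.93 and none with a −log10 q of at least 5 or at equal covered length, where no loss could be seen.

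Over the rest of the gene body, 128067 bp were covered in the 7 genes in control and 15293 bp after treatment, of which 15112 bp were kept, 11.8%. Coverage fell at 7 of 7 genes against 97.4% of the 11558 protein-coding genes with control coverage there. Some was kept at 4 of 7 (ZEB2, BCL11A, SATB1 and ZBTB16) against 28.3% of these protein-coding genes, which are of all lengths. At ZEB2 and BCL11A all of it belonged to the control peak over the start, cut by the 5 kb limit. The count of 4 thus depends on that limit. The pooled share was 7.2% over protein-coding genes and 7.09% over those of at least 20 kb. The median gene kept 1.09% here and none over protein-coding genes. ZEB2 set much of the pooled value, which was 7.85% without it.

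Over the flanks the 7 genes kept little. Control peaks covered 136117 bp, and 4432 bp were covered after treatment, of which 4121 bp (3.03%) were kept. Coverage fell at 6 of the 6 genes with control coverage, against 98.6% of protein-coding genes. Some was kept at 3 of 6 (BCL11A, BCL6 and SATB1) against 71.3%. The pooled share over protein-coding genes was 11.8%, and over those of at least 20 kb it was 10.7%. These background flanks take in the 5′ ends of neighbouring genes, so the ranges compared can be unlike. With other 5′ ends left out the 7 genes kept 3.28%, and the same was not computed for all genes. Without BCL6 the share of the others was 0.947%.

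By peaks, 11 of 375 control peaks in all ranges were kept, 2.93% with a Wilson 95% interval of 1.65 to 5.18%, against 8.24% of the whole list. This interval reflects counting error alone, and peaks that lie side by side depend on each other. When only control peaks with a −log10 p of at least 3.93 were counted, 8 of 45 were kept, 17.8%, against 28.4% of the whole list. With a −log10 q of at least 5 in both lists it was 2 of 4 against 10.3%, so that the order between these genes and the list depended on the threshold.

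By distance from the 5′ end, summed over the 7 genes, the kept share was highest within 5 kb. From 0 to 5 kb downstream 57.1% of 22543 bp were kept, and in the 5 kb upstream 40.7% of 19998 bp, against 22.0% and 18.6% pooled over protein-coding genes. Beyond that ZEB2 decided the order. From 5 to 10 kb downstream the share was 36.6%, and 4.26% without ZEB2, against 10.8% over protein-coding genes. From 10 to 25 kb it was 24.2%, and 26.3% without ZEB2, against 10.9%, and all of it was at ZEB2, SATB1 and ZBTB16. From 25 to 50 kb none of 40880 bp was kept against 11.3%. Upstream, none was kept from -25 to -5 kb, and the 8.27% from -50 to -25 kb, against 11.4%, was all at BCL6. The pooled values at these distances also take in 5′ ends of other genes.

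When peaks within 12.5 kb of each other were stitched into regions, ranked by the sum of fold times length within a list, ZEB2, SATB1 and BCL11A led the 7 genes in both lists. The lists held 24668 regions in control and 18541 after treatment, so ranks are given as percent of a list, counted from the top. ZEB2 lay in a region of 280 kb with 75 peaks at 0.892% in control and in 1 of 16.4 kb with 3 peaks at 0.868% after treatment. The control region, chr2:144459525-144739628, reaches beyond the 100 kb flank, whereas that after treatment is the block around the start alone. Like ranks thus do not stand for like regions. SATB1 lay at 2.75% with 126 kb and at 2.91% with 24.7 kb. BCL11A lay at 4.04% with 158 kb and at 2.13% with 13.7 kb. The regions were far shorter after treatment. ZBTB16 lay at 12.9% and 13.0%, while TCF4 at 17.3% and ZEB1 at 71.8% in control had no region after treatment. For BCL6 the regions are unlike too. That of control, 57.0 kb with 20 peaks at 8.17%, takes in the upstream peaks. The BCL6 region after treatment, at 73.8%, is the promoter piece of 177 bp alone. These regions came from peak lists and not from reads. Among peaks reaching a −log10 q of 5, the control list held 4 of BCL11A, SATB1 and ZEB2 out of 9275, and the SNDX-50469 list 3 of BCL11A, BCL6 and ZEB2 out of 938.

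The 20 partner and paralogue genes of these factors were read near the 5′ end in the same way. Of them 18 were covered in control, all 18 had less covered length after treatment, as did 98.9% of protein-coding genes, and 15 kept some of it, against 50.8%. Their median share was 27.6% and their pooled share 37%, against a median of 1.85% and a pooled share of 20.4% over protein-coding genes. The list was chosen by function, it is not matched to other genes on peak strength, and nothing particular to it is drawn from these shares.

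All 9 corepressor genes kept some coverage, 41.6% pooled, and the counts of each group here stand against the same 50.8% and 20.4%. CHD4, the helicase of the NuRD complex, kept 22.6% of 9377 bp, and HDAC3, the deacetylase of the NCOR complexes, kept 11.6% of 9017 bp. CTBP1, the corepressor that ZEB proteins recruit, kept 71.9% of 5207 bp. Among the E protein and ID genes, which heterodimerise with TCF4 or block it, 4 of 5 covered genes kept some, 21.8% pooled, and ID4 was not covered in either list. Among the paralogues 2 of 4 covered genes kept some, 43.9% pooled. ZBTB7A, a repressor of fetal globin like BCL11A, kept 70.6% of 8204 bp, and BCL11B, the T-lineage paralogue of BCL11A, was not covered near its 5′ end.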

How the data were processed

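H3K27Ac was profiled in MOLM13 cells by ChIPmentation, 1 library for each condition. Per the labels, the submitters' processing notes name Trim Galore 0.6.5, Bowtie2 2.3.4.2, Picard 2.9.0, MACS2 2.1.2 and GRCh38, with no options, whereas the supplementary methods name TopHat2 with hg38. Options and the use of the input are not given in the sources used here. The authors called broad peaks per library, without pooling. The deposited lists give each peak a ratio (fold over the background of its own library), a −log10 p and q, and a score. The authors' score was not used. Read totals are not in these lists, so depth is unknown, and Wilson 95% intervals cover counting error only.

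Python 3.11.15 with numpy 2.4.6, pandas 2.3.3, scipy 1.17.1, statsmodels 0.14.6 and matplotlib 3.10.9 was used. Genes were those of RefSeq GRCh38.p14. The strand came from the RefSeq promoter table for 15843 genes and by symbol from GENCODE, of another build and used for no coordinate, for 3832. The other 362 genes were left out of windows. Exons and introns were not used here. The code for covered and shared lengths was tested on simulated data. The members and gene lists were chosen with earlier results of these data known. Named were the 7 genes with their strongest and widest peaks, protein-coding genes in the flanks with a control peak at their 5′ end, and of 20 partners and paralogues those 2 with the longest, 2 with the shortest control coverage near the 5′ end and 2 with the highest kept share. Also named, after their values were seen, were other kept peaks, the second SATB1 core, the internal TCF4 peak and noncoding genes under peaks. Alternatives were the thresholds, the lengths of the lists, the windows, the flanks, the overlap and the choice of starts.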

Additional observations from a re-analysis of the deposited data

How the results depend on the processing

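The kept share near the 5′ end was the steadiest of the 4 pooled values by count. Of 13 alternatives, 12 left it within 1.5 times of 49.4%. They include leaving out each of the 7 genes in turn, so the count does not stand for processing settings alone. ZEB1 and ZBTB16, with 188 and 119 bp in control, could hardly move the share. It was 75.4% with the control list trimmed to equal covered length, which leaves 3632 control peaks. The share over the rest of the gene body, 11.8%, became 18.4% with a −log10 q of at least 5 in both lists, 24.8% with a common −log10 p, 40.8% at equal covered length and 7.85% without ZEB2. The flank share, 3.03%, became 8.33% with a common −log10 p, 4.66% with 50 kb flanks, 0.0% with 25 kb flanks and 0.947% without BCL6, and could not be computed at a −log10 q of at least 5 or at equal covered length, where no control coverage was left in the flanks. The share of peaks kept, 2.93%, became 50% at a −log10 q of at least 5, 17.8% with a common −log10 p, 100% (3 of 3 peaks) at equal covered length and 1.07% when at least 50% of the control peak had to be covered. At equal covered length 93.0% of the whole control list (3376 of 3632 peaks) was kept too, so 3 of 3 does not set these genes apart. The difference in covered length turned from -22270 bp to 2215 bp (−log10 q) and 3176 bp (equal length) at BCL6, and from -14912 bp to 2440 bp (equal length) at ZBTB16, since these settings remove the weaker control peaks of the genes. It became 0 at ZEB1 and TCF4 under both settings and at ZBTB16 with the −log10 q, where neither list covered these genes, so that the loss at ZEB1 and TCF4 rests on weaker control peaks. Leaving out each gene in turn, and ZEB2 from the shares by distance, was chosen after seeing the data. No paired analysis was possible because only 1 library stood for each condition. Depth is unknown, and what part of the shorter SNDX-50469 list comes from the library was not tested.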
